A study of Mus musculus with 8 samples.

Results

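The interferon-induced transmembrane genes Ifitm1, Ifitm2, Ifitm3, Ifitm6 and Ifitm10 and the gene Plac8 were followed across the CD45+ cells of B16-OVA tumors treated with cytokine-engineered T cells. These 6 genes of the 27998 in the count matrix were taken by their symbol, and every one was detected. They were chosen by earlier readings of the same data, above all the higher Ifitm1, Ifitm2, Ifitm3 and Plac8 in CD8 T cells on day 12 after transfer of PD1d/2V/33 cells than after PD1d/IL2V cells or in the untransduced library of day 5. The levels and ratios of CD8 T cells on day 12 are therefore a description and carry no test, and every comparison that holds the PD1d/2V/33 day 12 library shares it with the others. The remaining Ifitm symbols of the matrix were near its floor, with 75 unique molecular identifiers (UMIs, 1 per captured transcript) of Ifitm5 and 132 of Ifitm7 in all retained cells.

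C57BL/6 mice bearing ovalbumin-expressing B16 melanoma received OT1 CD8 T cells, whose receptor recognizes ovalbumin, with no lymphodepletion beforehand. The cells were untransduced OT1, or secreted PD1d (the mouse PD-1 ectodomain fused to human IgG4 Fc) together with IL2V (an IL-2 variant that does not engage the alpha chain of its receptor), with 33 (IL-33), or, as a mix of both engineered populations, with 2V and 33. Untransduced OT1 and PD1d/2V/33 tumors were taken on day 5 and day 12, PD1d/2V/33 also on day 26, PD1d/IL2V and PD1d/33 on day 12, and tumors of Non-Treated mice, which received no T cells, on day 5. Sorted CD45+ cells, enriched for CD8+ cells and pooled from several mice, gave 1 droplet library of 5′ single-cell RNA for each condition and day, so that no difference between conditions could be tested against a spread between mice. Transferred and host CD8 T cells share the gate used here and were not told apart.

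Of 15700 barcodes, 12819 passed the filter on depth and RNA quality, and 10170 of these met a gate on raw marker UMIs: 4903 CD8 T, 1029 CD4 T, 2401 NK and 1274 myeloid cells, 340 type 2 cells (Gata3 with Il1rl1, Il5 or Il13, and no Foxp3 or Cd8), 130 B cells, 52 neutrophils and 41 plasmacytoid dendritic cells. The CD8 T gate held 76 cells of Non-Treated, 471 of untransduced OT1 day 5, 40 of untransduced OT1 day 12, 546 of PD1d/IL2V, 356 of PD1d/33, and 481, 713 and 2220 of PD1d/2V/33 on days 5, 12 and 26, at median depths of 5168.5 to 8161 UMIs per cell. Barcodes sharing a sequence across libraries numbered 286 (143 sequences, each in 2 libraries). The paths in the deposited aggregation sheet carry 5 NXT identifiers, whose meaning is not given. PD1d/2V/33 day 12 shared its identifier with untransduced OT1 day 12 only, so that identifier and condition cannot be told apart in its other comparisons.

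IFITM proteins are small membrane proteins, many of them induced by interferons, that restrict the entry of enveloped viruses at the plasma membrane and in endosomes. Ifitm1, Ifitm2 and Ifitm3 are the close homologs best known for this. Ifitm6 is a myeloid member of the same cluster, and Ifitm10 is a distant member of little known function. Plac8 encodes a small cysteine-rich protein first described in placenta and abundant in many leukocytes. Ifit1 and Isg15, classical targets of type I interferon, were set beside them.

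In RefSeq coordinates of build GRCm38.p6, Ifitm2 (ENSMUSG00000060591, chr7:140954837-140959686), Ifitm1 (ENSMUSG00000025491, chr7:140967429-140969827), Ifitm3 (ENSMUSG00000025492, chr7:141009590-141010744) and Ifitm6 (ENSMUSG00000059108, chr7:141015812-141016892) are neighbours in 1 cluster. Ifitm10 (ENSMUSG00000045777, chr7:142325835-142373779) lies farther along the same chromosome, and Plac8 (ENSMUSG00000029322, chr5:100551589-100572253) on another. Exact stretches of 50 bases shared with another family transcript made up 1.42% of such stretches in Ifitm1, 3.32% in Ifitm2 and 5.56% in Ifitm3. These shares are over whole transcripts. Where the shared stretches lie was not examined, so the share of 5′ reads that could be counted for the wrong homolog is not known.

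The 250 bases before an annotated start are shown for the 3 homologs that were highest in PD1d/2V/33 CD8 T cells on day 12 and for the interferon targets beside them. Capitals mark GAAA and GAAA with any 2 bases between, the core of the interferon-stimulated response element, searched on both strands. All sequences are 5′ to 3′ on the strand of the gene.
Ifitm1, chr7:140967826-140968075, plus strand: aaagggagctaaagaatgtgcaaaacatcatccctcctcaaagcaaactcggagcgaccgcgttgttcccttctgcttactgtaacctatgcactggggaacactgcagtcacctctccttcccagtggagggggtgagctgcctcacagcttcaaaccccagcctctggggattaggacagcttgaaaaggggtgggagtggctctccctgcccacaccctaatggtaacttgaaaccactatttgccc
Ifitm2, chr7:140955962-140956211, minus strand: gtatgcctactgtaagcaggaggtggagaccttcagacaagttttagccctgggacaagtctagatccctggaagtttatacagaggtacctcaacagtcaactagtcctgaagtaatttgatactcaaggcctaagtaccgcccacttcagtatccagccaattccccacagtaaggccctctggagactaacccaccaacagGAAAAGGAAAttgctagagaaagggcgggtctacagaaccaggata
Ifitm3, chr7:141010745-141010994, minus strand: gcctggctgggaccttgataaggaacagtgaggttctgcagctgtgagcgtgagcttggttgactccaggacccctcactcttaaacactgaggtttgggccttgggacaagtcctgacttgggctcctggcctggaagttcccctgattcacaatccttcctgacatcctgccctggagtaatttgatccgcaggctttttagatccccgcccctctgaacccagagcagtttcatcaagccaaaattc
Ifit1, chr19:34640639-34640888, plus strand: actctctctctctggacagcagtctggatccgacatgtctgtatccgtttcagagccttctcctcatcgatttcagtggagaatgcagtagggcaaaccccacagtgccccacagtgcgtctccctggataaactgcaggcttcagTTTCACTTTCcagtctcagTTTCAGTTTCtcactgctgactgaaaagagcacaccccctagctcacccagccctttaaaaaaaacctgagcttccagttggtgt
Isg15, chr4:156200819-156201068, minus strand: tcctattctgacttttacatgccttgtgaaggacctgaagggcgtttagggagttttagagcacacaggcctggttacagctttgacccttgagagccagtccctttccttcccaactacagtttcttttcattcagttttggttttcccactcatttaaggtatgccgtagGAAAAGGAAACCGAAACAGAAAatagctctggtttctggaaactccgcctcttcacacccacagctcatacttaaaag
Ifitm2 held 1 match, GAAAAGGAAA, from 46 to 37 bases before its start. Ifit1 held 2 on the opposite strand, and Isg15 held 3 that overlap in 1 run between 78 and 57 bases before its start. Among all 32851 RefSeq starts, 978 (2.98%) held the motif in the same window. No match was found in this window for Ifitm1, Ifitm3, Ifitm6, Ifitm10 (3 starts) or Plac8 (2 starts). The windows of Ifitm1 and Ifitm2 lie inside the gene spans given above, and the bases before the 5′ ends of those spans were not searched. The palindrome TTCNNNGAA, bound by STAT dimers, was in 7.02% of all windows and, among the members, in that of Ifitm6 only. These letters describe the window and not binding.

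In CD8 T cells the 3 homologs were highest in PD1d/2V/33 on day 12. Levels are UMIs of the gene per 1000000 UMIs of all gated cells of a library (CPM), with exact 95% Poisson intervals that cover counting error only and are too narrow where a few cells hold most UMIs. UMIs are not scaled for length, so levels are compared between libraries and not between genes. Ifitm1, which acts mostly at the cell surface, was at 0 CPM in Non-Treated, 126 in untransduced OT1 day 5, 0 in untransduced OT1 day 12, 97.4 in PD1d/IL2V, 11.3 in PD1d/33, and 293, 633 (614 to 652) and 5.90 in PD1d/2V/33 on days 5, 12 and 26. The 2 libraries at 0 were also the smallest, where 3 UMIs are worth 6.87 and 11.1 CPM. From the highest down, PD1d/2V/33 day 12, PD1d/2V/33 day 5, untransduced OT1 day 5, PD1d/IL2V and PD1d/33 each differed from the next by more than counting error, while PD1d/33 and PD1d/2V/33 day 26 did not.

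Ifitm2, an endosomal homolog, was at 4.58 CPM in Non-Treated, 67.1 in untransduced OT1 day 5, 55.7 in untransduced OT1 day 12, 57.2 in PD1d/IL2V, 8.95 in PD1d/33, and 80.0, 671 (652 to 691) and 9.28 in PD1d/2V/33 on days 5, 12 and 26. The value of untransduced OT1 day 12 was 15 UMIs, all of them in 1 cell. PD1d/2V/33 day 12 stood alone, while the intervals of untransduced OT1 day 5 (59.8 to 75.0) overlapped those of both PD1d/IL2V (50.9 to 64.0) and PD1d/2V/33 day 5 (71.7 to 88.9). Ifitm3, the endosomal homolog with the best known antiviral role, was at 4.58, 33.9, 0, 26.8, 7.06, 56.6, 222 (211 to 234) and 6.26 CPM in the same order of libraries. Its order again began with PD1d/2V/33 day 12 and then day 5, and the interval of untransduced OT1 day 5 (28.7 to 39.6) overlapped that of PD1d/IL2V (22.6 to 31.6).

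Plac8 was spread more evenly. It was at 181 CPM in Non-Treated, 282 in untransduced OT1 day 5, 100.3 in untransduced OT1 day 12, 379.8 in PD1d/IL2V, 250.1 in PD1d/33, and 634, 876 (854 to 899) and 142 in PD1d/2V/33 on days 5, 12 and 26. The order was PD1d/2V/33 day 12, PD1d/2V/33 day 5 and PD1d/IL2V, each apart by more than counting error, then untransduced OT1 day 5 and PD1d/33, whose intervals overlapped, and last Non-Treated, PD1d/2V/33 day 26 and untransduced OT1 day 12, of which each overlapped the next. Ifitm10 ran in another order, at 52.7, 33.2, 37.2, 50.9, 38.6, 14.0 (10.7 to 18.1), 25.6 (21.9 to 29.7) and 66.8 (62.7 to 71.2) CPM, lowest in PD1d/2V/33 on day 5 and highest in PD1d/2V/33 on day 26, where only the wide intervals of Non-Treated and untransduced OT1 day 12 overlapped. Ifitm6 was not detectable beyond 5 UMIs in the CD8 T cells of any library.

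**Figure D1:**
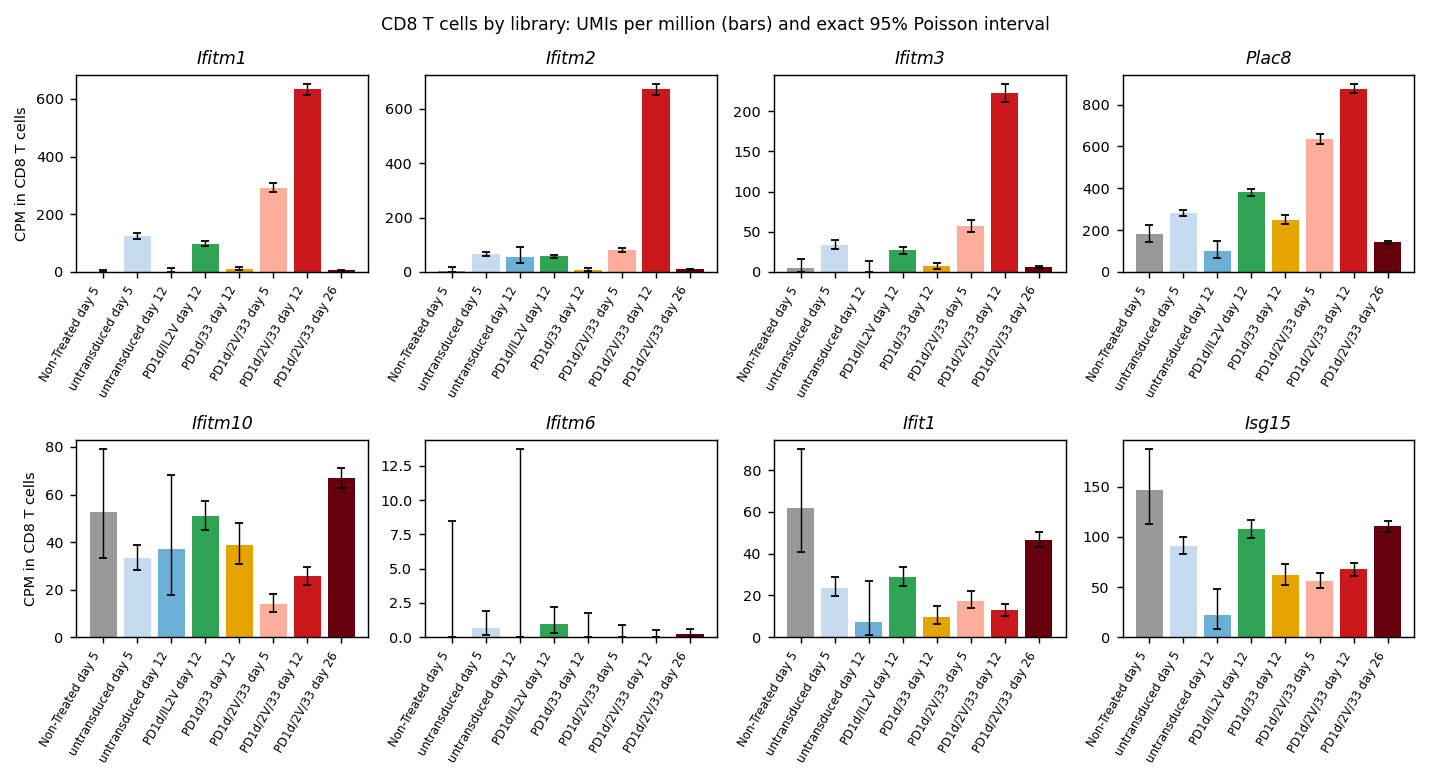
Level of each gene in CD8 T cells (CPM, vertical axis from 0) in the 8 libraries, 1 bar per library with its exact 95% Poisson interval as the error bar. Ifitm1, Ifitm2, Ifitm3 and Plac8 peak in PD1d/2V/33 day 12 (633, 671, 222 and 876 CPM), where Ifit1 and Isg15 stand at 12.9 and 67.5 CPM, below their values in PD1d/2V/33 day 26.

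RNA of myeloid cells, which hold much Ifitm3 and Plac8, was measured in the CD8 T gate through Apoe, C1qc, Ms4a7 and Cd14. Their summed level in CD8 T cells was 0.106% (PD1d/33) to 0.537% (untransduced OT1 day 12) of that in myeloid cells, and 0.379% in PD1d/2V/33 day 12. The lowest share came from fewer than 3 marker UMIs and the highest from 3. Untransduced OT1 day 12 had 14 myeloid cells, so those of all libraries were used for it. The share of 0.379% would bring 0.777 CPM of Ifitm1, 4.21 of Ifitm2, 15.0 of Ifitm3 and 18.1 of Plac8 into the CD8 T cells of PD1d/2V/33 day 12, against 633, 671, 222 and 876 measured. For Ifitm3 the same reckoning gave 12.1 CPM against 6.26 measured in PD1d/2V/33 day 26, 11.7 against 4.58 in Non-Treated and 23.0 against 0 in untransduced OT1 day 12, so these levels are within the size of such carried-over RNA. In PD1d/IL2V it gave 15.0 of the 26.8 CPM of Ifitm3 measured and in untransduced OT1 day 5 12.0 of 33.9, and the part of such RNA in the Ifitm3 ratios was not tested.

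In CD8 T cells of PD1d/2V/33 day 12 the 3 homologs were seen in a minority of cells and Plac8 in most. After every CD8 T cell was thinned to 2000 UMIs, an Ifitm1 UMI was seen in 10.4% of the cells of PD1d/2V/33 day 12 (exact interval 8.24 to 12.9, and 16.4% without thinning), 9.36% on day 5 and 0.405% on day 26. Ifitm2 was seen in 21.2% of the cells of PD1d/2V/33 day 12 (18.2 to 24.4, and 30.7% without thinning), 8.52% on day 5 and 5.13% in PD1d/IL2V. Ifitm3 was seen in 11.2% (9.0 to 13.8, and 18.7% without thinning), 6.03% and 2.75% of the cells of the same libraries. In B cells, at a median of 3206 UMIs, the thinned shares of the 3 were 0% (where 3 cells of 130, the floor used for a count of 0, would be 2.31%), 0.769% and 4.62% (exact interval 1.71 to 9.78). The Ifitm2 share in PD1d/33 (0.562%) and the Ifitm3 shares in Non-Treated (2.63%), untransduced OT1 day 5 (3.4%), PD1d/IL2V, PD1d/33 and PD1d/2V/33 day 26 were no higher than those in B cells. The Ifitm3 share of PD1d/2V/33 day 5 lay within the B cell interval. Ifitm1 shares in PD1d/33 (1.12%) and PD1d/2V/33 day 26 were below the floor of 2.31%. Whether B cells express the 3 homologs was not tested, so their shares are not a measured background. Plac8 was seen in 64.5% of the CD8 T cells of PD1d/2V/33 day 12 (60.9 to 68.0, and 82.5% without thinning), 44.9% on day 5, 13.9% on day 26 and 37.5% in PD1d/IL2V. B cells express Plac8 and were not set beside it.

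Among the cells with a UMI, levels differed widely. The 117 cells with Ifitm1 in PD1d/2V/33 day 12 held a median of 13 and up to 304 UMIs, and 16 cells (2.24% of the gate) held 50% of all Ifitm1 UMIs. Ifitm2 reached 194 UMIs in a cell, with 50% of its UMIs in 30 cells, and Ifitm3 reached 59, with 50% in 22 cells. Plac8 needed 112 cells (15.7%) for the same share. All 3 homologs were seen together, after thinning, in 26 of the 713 cells of PD1d/2V/33 day 12, 7 of 481 on day 5, 1 of 471 in untransduced OT1 day 5 and 1 of 2220 in PD1d/2V/33 day 26, and none of the 3 was seen in 532 of the 713. In PD1d/IL2V a single cell held 226 Ifitm1 UMIs, 43.8% of that library's total, and with the richest cell of each library left out the log2 ratio of PD1d/2V/33 to PD1d/IL2V on day 12 was 3.21 in place of 2.58.

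The addition of IL-33 was read on day 12 from PD1d/2V/33 over PD1d/IL2V, the contrast that chose the members. PD1d/2V/33 was a mix, so PD1d/IL2V cells were also a smaller share of the transferred cells. That change cannot be told apart from the added IL-33. Ratios are log2 of CPM plus 10 with 95% counting intervals, and a gene was called where the ratio reached 1, a 2-fold difference, among genes with at least 50 UMIs in both libraries together. Ifitm1 stood 2.58 higher (2.46 to 2.70), Ifitm2 3.34 (3.20 to 3.49), Ifitm3 2.66 (2.47 to 2.85) and Plac8 1.18 (1.11 to 1.26). These 4 of the 5 members measured were called higher, where 1.05% of 9016 genes were. Ifitm10 stood at -0.78 (-0.99 to -0.56), lower in PD1d/2V/33 than in PD1d/IL2V, and Ifitm6 had too few UMIs in this and the other comparisons.

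The addition of the IL-2 variant was read from PD1d/2V/33 over PD1d/33 on day 12, where the mix likewise holds a smaller share of PD1d/33 cells. Ifitm1 was 4.92 higher (4.58 to 5.22), Ifitm2 5.17 (4.83 to 5.47), Ifitm3 3.77 (3.42 to 4.07) and Plac8 1.77 (1.64 to 1.89), 4 of 5 members called where 1.17% of 8344 genes were. Ifitm10 was at -0.45 (-0.75 to -0.15). Against untransduced OT1 day 12, where 5.7% of 7769 genes were called, 4 of 5 members were again past the fold. Ifitm2 was at 3.37 (2.74 to 4.05), Plac8 at 3.01 (2.50 to 3.54), Ifitm1 at 6.01 (4.76 to 6.05) and Ifitm3 at 4.54 (3.29 to 4.61). Ifitm1 and Ifitm3 had 0 UMIs in the 40 untransduced cells. They stood 56.8-fold and 19.9-fold above a floor of 3 UMIs there, which is not an exact lower limit. In PD1d/2V/33 day 12, 16 of 713 cells held 50% of the Ifitm1 UMIs, and 40 cells can miss such rich cells. These day 12 ratios share 1 numerator, so they do not count as separate observations.

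On day 5 the PD1d/2V/33 library differed less from untransduced OT1. Ifitm1 was 1.16 higher (1.02 to 1.29) and Plac8 1.14 higher (1.05 to 1.23), 2 of 5 members called where 1.7% of 8631 genes were. Ifitm2 stood at 0.22 (0.03 to 0.42), Ifitm3 at 0.60 (0.36 to 0.84) and Ifitm10 at -0.85 (-1.13 to -0.56). Ifitm1 was no longer past the fold in 3 of 12 other settings, with a range from 0.65 to 1.81, whereas Plac8 stayed between 1.11 and 1.29. Day 5 thus showed Plac8 and Ifitm1 but not Ifitm2 or Ifitm3 past 2-fold.

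Over time within PD1d/2V/33, Ifitm2 separated most between day 5 and day 12, at 2.92 (2.78 to 3.06), with Ifitm3 at 1.80 (1.63 to 1.98) and Ifitm1 at 1.09 (1.0 to 1.18). These 3 of 5 members were called where 0.385% of 8830 genes were, while Plac8 (0.46) and Ifitm10 (0.57) were not. The Ifitm1 call was kept in only 5 of 12 other settings, with a range from -0.06 to 1.27, and Ifitm3 in 11 of 12. The Ifitm1 value was -0.06 (-0.19 to 0.07) without the cells that express granzymes C to G, described further on. Day 26 was far below day 12 for all 3 homologs and Plac8, at -5.34 (-5.46 to -5.21) for Ifitm1, -5.14 (-5.27 to -5.01) for Ifitm2, -3.84 (-3.97 to -3.70) for Ifitm3 and -2.54 (-2.61 to -2.47) for Plac8. Those 4 of 5 members were called lower where 1.64% of 9817 genes were. Ifitm10 alone was called higher, at 1.11 (0.93 to 1.29), where 1.6% of genes were, and it was below the fold in 2 of 12 other settings.

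**Figure D2:**
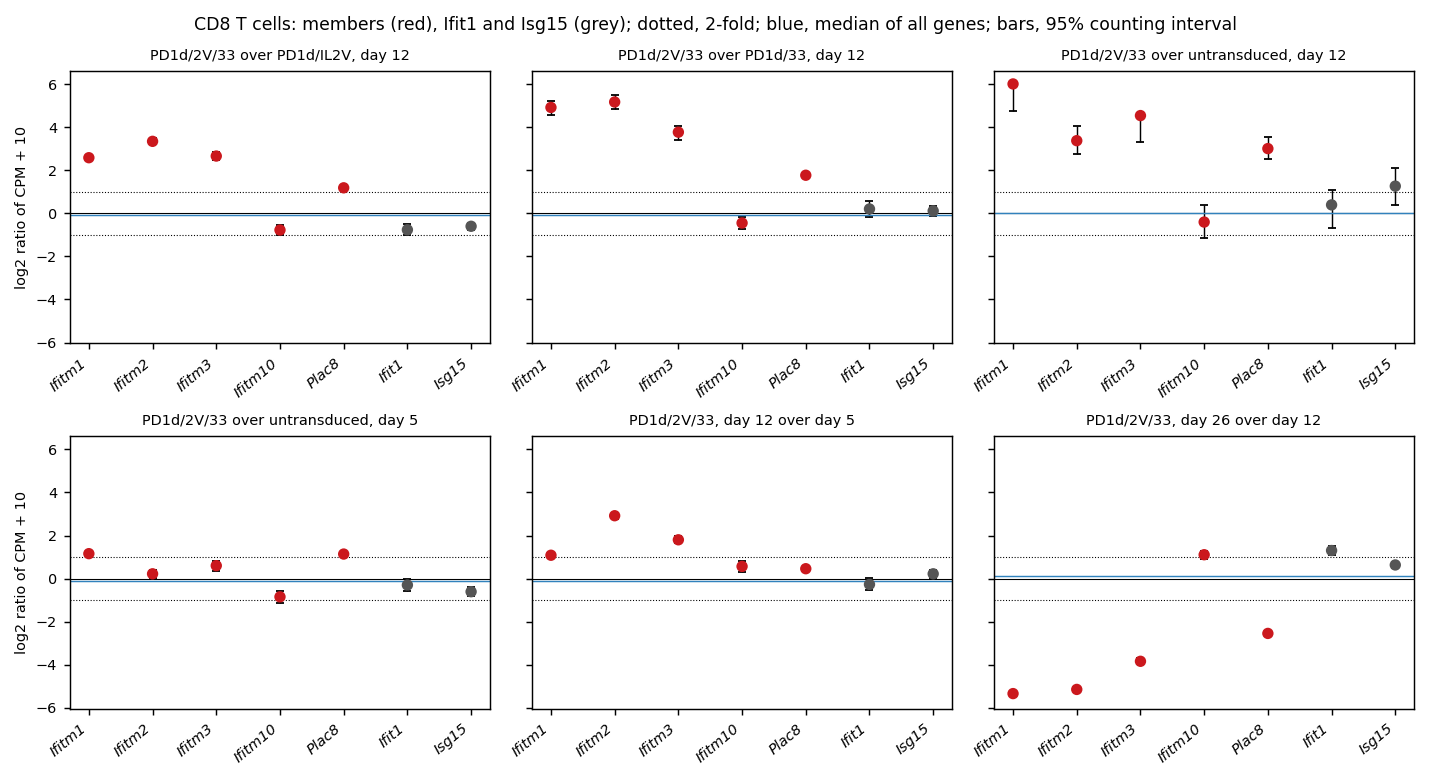
Log2 ratio of CPM plus 10 in CD8 T cells (vertical axis) for 6 comparisons between libraries, members in red and Ifit1 and Isg15 in grey, with 95% counting intervals, the 2-fold limit dotted and the median of all genes in blue. Ifitm1, Ifitm2, Ifitm3 and Plac8 lie past 2-fold in PD1d/2V/33 day 12 over each of the other day 12 libraries and on the other side for day 26 over day 12, where Ifitm10, Ifit1 and Isg15 lie at 1.11, 1.30 and 0.63.

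The interferon targets did not share this order. Ifit1, which binds viral RNA, was at 61.9 CPM in Non-Treated, 23.8 in untransduced OT1 day 5, 7.43 in untransduced OT1 day 12, 28.9 in PD1d/IL2V, 9.89 in PD1d/33, and 17.5, 12.9 and 46.5 in PD1d/2V/33 on days 5, 12 and 26. Isg15, a ubiquitin-like modifier, was at 147, 91.1, 22.3, 108, 61.7, 56.4, 67.5 and 110.3 CPM in the same order. The highest value of both was in Non-Treated, a library with no Ifitm1 UMI in its 76 CD8 T cells. It came from 27 UMIs of Ifit1 (40.8 to 90.0 CPM) and 64 of Isg15 (113 to 187 CPM). The Ifit1 interval holds the 46.5 CPM of PD1d/2V/33 day 26, and the 110.3 CPM of Isg15 there lies just below the other interval. In Non-Treated 3 cells held 50% of the Isg15 UMIs, a spread that the intervals do not cover. The ratio of PD1d/2V/33 to PD1d/IL2V on day 12 was -0.76 (-1.01 to -0.52) for Ifit1 and -0.60 (-0.76 to -0.44) for Isg15, and from day 12 to day 26 they were 1.30 (1.10 to 1.5) and 0.63 (0.50 to 0.77) higher, opposite in sign to the 3 homologs and Plac8 both times. Other comparisons differed. Over untransduced OT1 day 12, Ifit1 stood at 0.39 (-0.70 to 1.09) and Isg15 at 1.26 (0.40 to 2.10), from 6 Isg15 UMIs in that library. Over PD1d/33 they stood at 0.20 (-0.18 to 0.55) and 0.11 (-0.13 to 0.36). Day 12 over day 5 gave -0.27 (-0.54 to 0.01) and 0.22 (0.03 to 0.42). On day 5 over untransduced OT1 they were at -0.30 (-0.58 to -0.01) and -0.61 (-0.81 to -0.41).

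The wider interferon lists were read in the same comparisons, each list against the median of all genes. Of 29 type I interferon-stimulated genes, 26 were measured in PD1d/2V/33 over PD1d/IL2V, of which 0 were called higher and 4 lower, with a median of -0.47 against -0.10 for all genes. Of all genes 1.05% were called higher there. The share of all genes called lower was not counted, so the 4 lower genes have no share beside them. The 4 were Ifit3 at 39.6 CPM in PD1d/IL2V and 9.62 in PD1d/2V/33, Irf7 at 69.2 and 27.1, Rtp4 at 70.2 and 23.0, and Ifi27l2a at 712 and 346. Day 26 over day 12 gave 5 higher, among them Ifit1, Ifit3 and Irf7, and 0 lower of 27, with a median of 0.48 against 0.12. Of all genes 1.6% were called higher and 1.64% lower there. Over untransduced OT1 day 5, 0 of 25 were called for PD1d/2V/33 day 5 in either direction, where 1.7% of all genes were called higher. Over untransduced OT1 day 12, 3 of 24 were called higher, where 5.7% of all genes were, and 0 lower. The summed level of the list was lowest in PD1d/2V/33 day 12, at 1308 CPM, against 1624 to 2595 in the other libraries. Ifi27l2a alone made 346 of these 1308 CPM, against 587 in untransduced OT1 day 12 and 988 in PD1d/2V/33 day 5. The sum of 10 of the genes, the signature used below, was lowest in untransduced OT1 day 12, at 130 CPM. It was 156 in PD1d/2V/33 day 5, 162 in PD1d/2V/33 day 12 and 186 to 424 in the other libraries.

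Of the 20 genes of the interferon-gamma list, 18 were measured in PD1d/2V/33 over PD1d/IL2V, with 0 called higher, 2 lower and a median of -0.19. Here too the share of all genes called lower was not counted. From day 12 to day 26, 3 were called higher and 0 lower, where 1.6% and 1.64% of all genes were. Of 8 interferon receptors and signalling genes, 7 were measured. None was called in PD1d/2V/33 over PD1d/IL2V, PD1d/33 or untransduced OT1 day 5, or between its days. Over untransduced OT1 day 12, 1 was called higher, where 5.7% of all genes were. Among the interferon genes only Ifng had enough UMIs, at 1285 CPM in PD1d/2V/33 day 5 and 137 on day 12, against 383 in PD1d/IL2V. Ifng was thus highest in the day 5 library of PD1d/2V/33 and the 3 homologs in that of day 12.

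The members were next read in CD8 T cells that carried none of the interferon signature. The signature was the UMIs, per 2000 of a cell, of Ifit1, Ifit2, Ifit3, Isg15, Rsad2, Usp18, Oasl1, Oasl2, Irf7 and Mx1, and 575 of the 713 CD8 T cells of PD1d/2V/33 day 12 (80.6%) had 0 of them, as had 385 of 546 in PD1d/IL2V (70.5%). In these cells alone the ratios of PD1d/2V/33 to PD1d/IL2V were 2.63 for Ifitm1, 3.22 for Ifitm2, 2.62 for Ifitm3 and 1.11 for Plac8, close to those in all CD8 T cells. A count of 0 among 2000 UMIs does not show that a cell lacks these transcripts.

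At the other end, the 23 cells of PD1d/2V/33 day 12 with 3 or more signature UMIs had 7.17 CPM of Ifitm1 (1 UMI) against 710.4 in the cells at 0, and 28.7 of Ifitm2 (4 UMIs) against 717. The log2 ratios were -5.39 (-6.15 to -3.85) and -4.23 (-5.35 to -3.12). The 115 cells with 1 or 2 signature UMIs lay between, at 270.5 CPM of Ifitm1 and 496 of Ifitm2. Ifitm3 was at 215 against 235 CPM, and Plac8 was higher, at 1930 against 836 CPM. In PD1d/IL2V (32 cells with 3 or more) Ifitm1 was also lower, at 0 against 106 CPM, and in untransduced OT1 day 5 (33 cells) at 25.0 against 93.4, although the 113 cells with 1 or 2 signature UMIs there had 268. In PD1d/2V/33 day 26 (187 cells) Ifitm1 did not differ beyond counting error, at 4.08 against 4.92 CPM, while Ifitm3 was higher, at 19.4 against 3.35. In the cells sampled from PD1d/2V/33 day 12, Ifitm1 and Ifitm2 were therefore lower per UMI with more of the signature. Between the ends Ifitm3 did not differ beyond counting error and Plac8 was higher. In PD1d/2V/33 day 12, 16 of 713 cells held 50% of the Ifitm1 UMIs and 30 held 50% of those of Ifitm2. For Ifitm1 it was 2 of 546 cells in PD1d/IL2V and 4 of 471 in untransduced OT1 day 5. Groups of 23, 32 or 33 cells can miss such rich cells. The intervals do not cover this spread between cells, which was not tested.

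**Figure D3:**
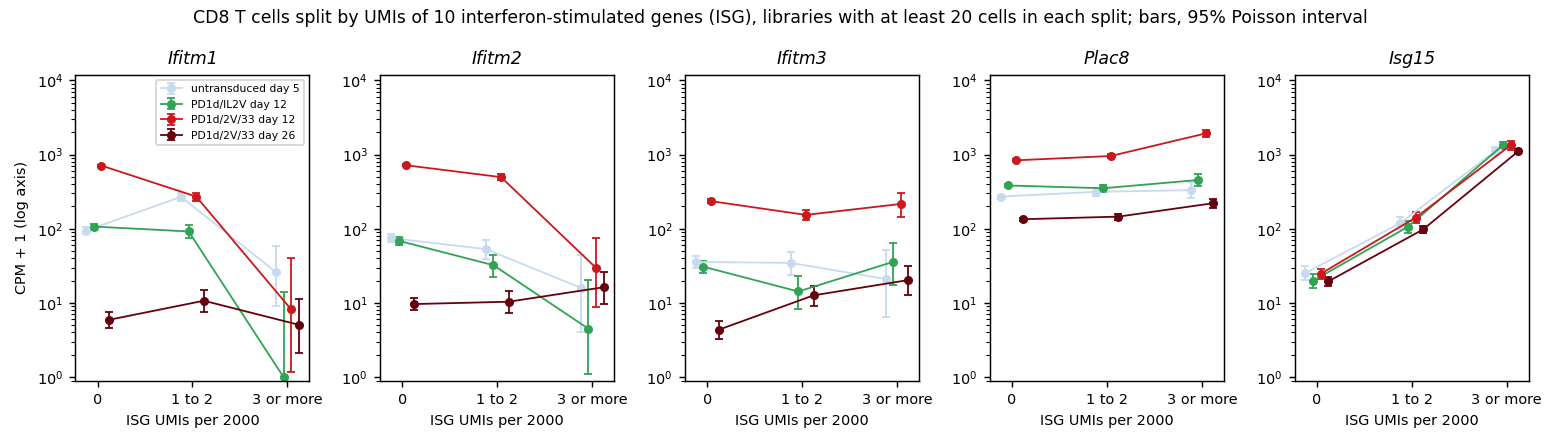
CPM plus 1 in CD8 T cells (log axis) split by UMIs of 10 interferon-stimulated genes per 2000 UMIs of a cell (0, 1 to 2, 3 or more), for the 4 libraries with at least 20 cells in each split. Isg15 climbs because it is 1 of the 10 genes, whereas Ifitm1 goes from 710.4 to 7.17 CPM and Plac8 from 836 to 1930 CPM in PD1d/2V/33 day 12.

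Cells with granzymes C to G, cytotoxic proteases encoded in 1 cluster, held much of the family. With at least 2 thinned UMIs of Gzmc, Gzmd, Gzme, Gzmf and Gzmg, 91 of the 713 CD8 T cells of PD1d/2V/33 day 12 (12.8%, exact interval 10.4 to 15.4) met this gate, 12 of 481 on day 5, 2 of 2220 on day 26, 20 of 546 in PD1d/IL2V, 9 in untransduced OT1 day 5 and 1 in PD1d/33. On day 12 of PD1d/2V/33 these cells held 21.8% of all UMIs but 71.7% of those of Ifitm1, 57.7% of Ifitm2, 56.9% of Ifitm3 and 26.8% of Plac8. Their levels were 2085 CPM for Ifitm1, 1778 for Ifitm2 and 581 for Ifitm3, against 195, 352 and 124 in the cells with 0 thinned UMIs of these granzymes. The log2 ratios were 3.36 (3.25 to 3.46), 2.30 and 2.14, with Plac8 at 0.39, Ifitm10 at -1.23 and Isg15 at -1.17. The gated cells were deeper, at a median of 16521 against 7359 UMIs. With cells above 20000 UMIs left out (66 against 569 cells) the 3 homologs stood at 3.66, 3.04 and 2.75.

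The same split in PD1d/IL2V gave 4.64 for Ifitm1, 2.94 for Ifitm2, 2.05 for Ifitm3 and 1.15 for Plac8, from 20 cells. Among granzyme cells the ratio of PD1d/2V/33 to PD1d/IL2V was 0.79 for Ifitm1, 2.24 for Ifitm2, 2.16 for Ifitm3 and 0.42 for Plac8, and for Ifitm1 it was 0.08 (-0.09 to 0.26) without cells above 20000 UMIs, where Plac8 was at 1.07. Among cells with none of these granzymes (583 against 519) it was 2.08, 2.87, 2.08 and 1.18. All 4 genes were thus past 2-fold in the cells with 0 thinned granzyme UMIs. Inside the granzyme gate Ifitm1 was below 2-fold and Plac8 on either side of 2-fold. In PD1d/IL2V, however, 1 cell held 226 of the 324 Ifitm1 UMIs of the 20 granzyme cells. The Ifitm1 values that use these 20 cells rest largely on that cell, and ratios inside the gate without it were not computed.

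**Figure D4:**
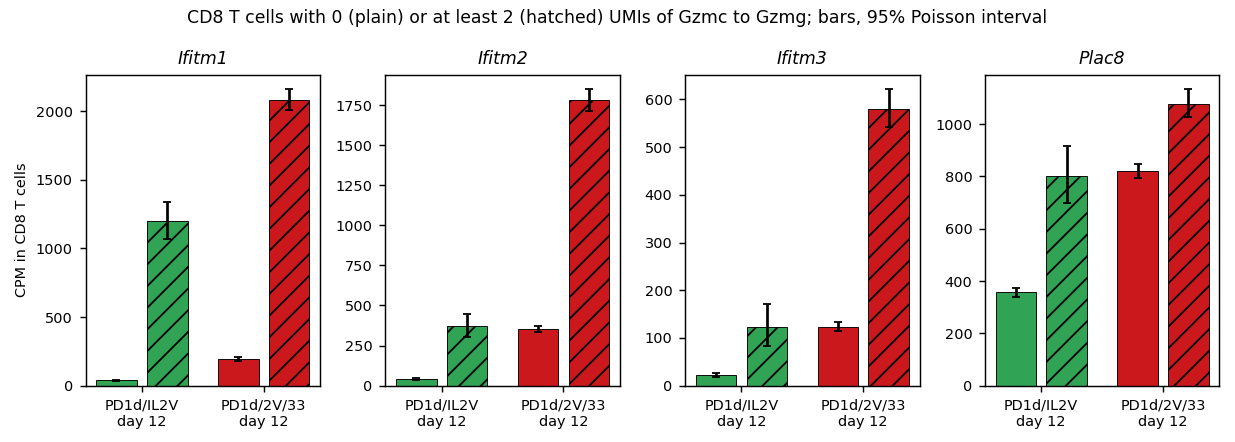
Level (CPM, axis from 0, exact 95% Poisson interval) in CD8 T cells with 0 (plain) or at least 2 (hatched) thinned UMIs of granzymes C to G, in PD1d/IL2V and PD1d/2V/33 on day 12. The hatched bars of Ifitm1, Ifitm2 and Ifitm3 stand far above the plain ones in both libraries (2085, 1778 and 581 against 195, 352 and 124 CPM in PD1d/2V/33), while those of Plac8 are closer (1078 against 820.3 CPM).

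Cycling CD8 T cells, gated on at least 2 thinned UMIs of Mki67, Top2a, Birc5 and Stmn1, were set against the cells of their library with none. On day 12 of PD1d/2V/33 (81 against 542 cells, at median depths of 13317 and 7342.5 UMIs) the log2 ratios were -0.07 for Ifitm1, 0.45 for Ifitm2, 0.43 for Ifitm3 and -0.28 for Plac8, all below 2-fold. On day 5 they were -0.66, -0.37, -0.83 and -1.08, so that Plac8 was past 2-fold lower in the cycling cells of that library. Ifitm1 differed in sign between libraries, at -1.74 (-2.08 to -1.39) in untransduced OT1 day 5 and 1.60 (1.25 to 1.93) in PD1d/2V/33 day 26, and Ifitm3 was at 1.02 (0.57 to 1.46) in PD1d/IL2V. The Ifitm1 values rest on few cells, since 2 cells held 50% of the 84 UMIs of PD1d/2V/33 day 26. In untransduced OT1 day 5, 4 cells held 50% of the Ifitm1 UMIs, and the intervals do not cover this. For Ifitm1, Ifitm2, Ifitm3 and Plac8, cycling cells thus showed no common direction over the libraries, with this limit for Ifitm1. Ifitm10 was lower in the cycling cells of every library compared. It ran from -0.31 (-0.76 to 0.15) in PD1d/2V/33 day 12 to -1.33 (-2.10 to -0.41) in PD1d/33, there from 4 UMIs in cycling cells. In PD1d/2V/33 day 26 it was at -1.19 (-1.53 to -0.85). Its intervals in PD1d/2V/33 on days 5 and 12 included no difference.

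Cells with Pdcd1, an inhibitory receptor, and Tox, a transcription factor of exhausted T cells, and with none of granzymes C to G, numbered at least 20 in 5 libraries, PD1d/2V/33 day 12 not among them. Their Ifitm1 was at 73.1 CPM in untransduced OT1 day 5, 6.14 (2 UMIs) in PD1d/IL2V, 9.13 (2 UMIs) in PD1d/33, and 126 and 0.663 (1 UMI) in PD1d/2V/33 on days 5 and 26. Their Plac8 was at 296, 230.4, 315, 545 and 131 CPM in the same order. Both genes were highest in PD1d/2V/33 day 5 among these 5 libraries. Its Ifitm1 value was 19 UMIs in 21 cells, and the interval (76.1 to 197 CPM) overlapped that of untransduced OT1 day 5 (56.8 to 92.7).

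In NK cells Ifitm1, Ifitm2 and Plac8 were also highest in PD1d/2V/33 day 12. Ifitm2 was at 79.7 CPM in Non-Treated, 47.8 in untransduced OT1 day 5, 0 in untransduced OT1 day 12, 19.1 in PD1d/IL2V, 7.61 in PD1d/33, and 21.9, 376 (352 to 401) and 20.5 in PD1d/2V/33 on days 5, 12 and 26. The Non-Treated value came from 1 cell for 92% of its UMIs, and in PD1d/2V/33 day 12 5 of 47 positive cells held 50%. Ifitm1 in NK cells was at 0, 29.5, 0, 19.1, 3.81, 9.62, 57.0 and 0 CPM in that order of libraries, with 2 cells holding 50% of its 142 UMIs in PD1d/2V/33 day 12. PD1d/2V/33 over PD1d/IL2V on day 12 gave 3.73 (3.47 to 3.99) for Ifitm2, 1.20 for Ifitm1, 0.03 for Ifitm3 and 1.03 for Plac8. Plac8 in NK cells was at 89.3, 170, 125, 291, 403, 545, 606 and 129 CPM in the order of libraries above, highest in PD1d/2V/33 on days 12 and 5 as in CD8 T cells. Ifitm10 in NK cells ran from 39.3 CPM in PD1d/2V/33 day 5 to 155 on day 26, the same lowest and highest libraries as in CD8 T cells.

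Myeloid cells carried the family in every condition. Ifitm3 was at 2640 to 5208 CPM over the 7 libraries with at least 20 myeloid cells, Ifitm2 at 663 to 1912, Ifitm1 at 58.8 to 482, Ifitm6 at 130 to 415 and Plac8 at 1362 to 4772. The lowest Ifitm1, Ifitm2, Ifitm3 and Ifitm6 values were all in PD1d/2V/33 day 5, where Plac8 was at 3771 CPM. Non-Treated had the lowest Plac8, and PD1d/2V/33 day 12 the highest Plac8 and Ifitm6. Ifitm10 gave 3 UMIs in all 1274 myeloid cells and none after thinning, which by the floor of 3 counts allows a share of cells with a UMI of up to 0.235% (exact upper limit 0.289%), against 13.6% of the CD8 T cells of PD1d/2V/33 day 26. By subset, over all libraries together, 298 cells high in C1q, the complement genes of macrophages, had 2768 CPM of Ifitm3 and 79.8 of Ifitm6. The 569 cells low in C1q with Ly6c2, a monocyte antigen, had 5270 and 379, with Plac8 at 4513 against 2744.

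CD4 T and type 2 cells differed again. In CD4 T cells Ifitm1 was at 0 to 17.7 CPM in all libraries. Plac8 there was at 14.2, 31.3, 64.2, 36.7, 182, 488, 146 and 57.2 CPM in the order of libraries above, highest in PD1d/2V/33 day 5, where it stood 3.59 (3.15 to 4.03) above untransduced OT1 day 5 on the log2 scale. Over all libraries together, Foxp3+ CD4 T cells had less Plac8 (75.0 against 141 CPM) and less Ifitm10 (4.0 against 33.8 CPM) than the other CD4 T cells. These pooled levels mix the libraries, and the part of a differing Foxp3+ share by library was not tested. Type 2 cells numbered at least 20 in the 4 libraries of PD1d/33 and PD1d/2V/33. Their Ifitm3 was at 95.1 CPM in PD1d/33 and 358, 72.8 and 97.6 in PD1d/2V/33 on days 5, 12 and 26, and their Plac8 at 978, 1252, 1463 and 371. Ifitm1, Ifitm2 and Ifitm3 were thus highest on day 5 in type 2 cells, and on day 12 in CD8 T cells.

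**Figure D5:**
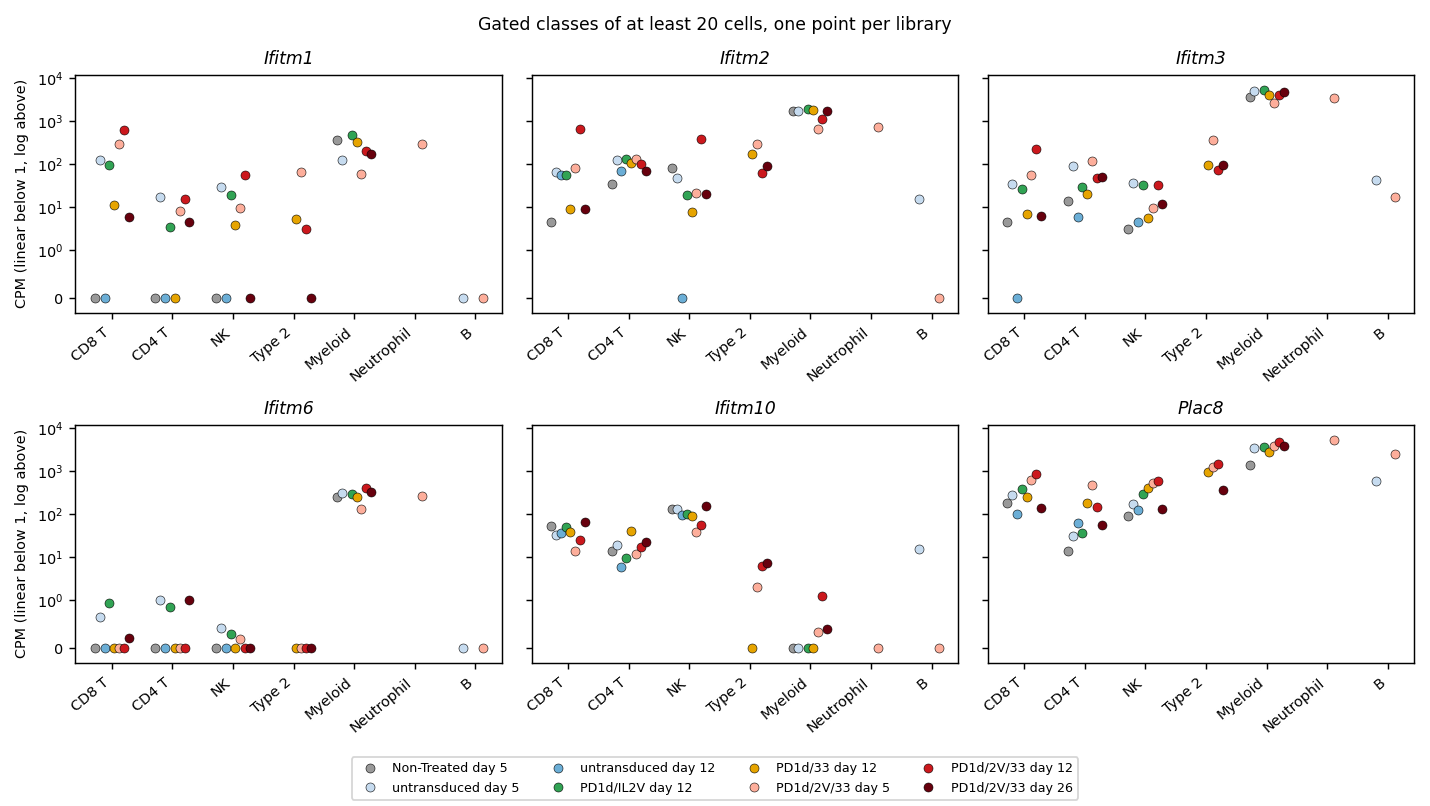
CPM of each gene by gated class (vertical axis logarithmic, linear below 1), 1 point per library for units of at least 20 cells. Myeloid cells hold Ifitm3 at 2640 to 5208 CPM in each library shown for them, whereas CD8 T cells range from 0 to 222 CPM with PD1d/2V/33 day 12 at the top. Ifitm10 lies in CD8 T and NK cells and also in CD4 T cells.

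The gates were checked on further markers of each class, of which only Csf3r had been used to gate. Each class ranked 1 or 2 of 8 for its own markers, except Tyrobp in NK cells, at rank 4, and the T-cell markers in CD8 T cells, at rank 2 or 3, with CD4 T cells at rank 1.

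The genes whose level ran most like each member over the CD8 T cells of the 8 libraries were named by Pearson's r among 6443 genes, as a description over 8 points, the libraries, which differ in depth. Ifitm1 and Ifitm3 both had Gzmf at 0.98, a granzyme of the gate above, and Bnip3, a mitophagy receptor, at 0.97 and 0.96. Ifitm3 and Plac8 had the cell cycle inhibitor Cdkn1a at 0.98 each. Ifitm2 had AA467197 at 0.94 and the potassium channel Kcnn4 at 0.93. Among the members, r was 0.96 between Ifitm1 and Ifitm3, 0.94 between Ifitm1 and Plac8, 0.83 between Ifitm1 and Ifitm2 and -0.69 between Ifitm1 and Ifitm10. Isg15 stood at 0.01 with Ifitm1, -0.33 with Ifitm2, 0.07 with Ifitm3 and 0.11 with Plac8, and Ifit1 at -0.26, -0.49, -0.21 and -0.20.

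Over 30 units of class and library, where myeloid cells set the high end, the order changed. Isg15 then stood at 0.79 with Ifitm3, 0.71 with Ifitm2, 0.45 with Plac8 and 0.40 with Ifitm1. The gene most like Ifitm3 was Gm7676 at 0.97, and those most like Plac8 were Lgals3, a lectin of macrophages, and Basp1, both at 0.83. Ifitm10 ran the other way, at -0.81 with Ifitm3, -0.73 with Ifitm2 and -0.65 with Plac8. Isg15 was thus nearer to each of Ifitm1, Ifitm2, Ifitm3 and Plac8 over these units than over the CD8 T cells of the libraries.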

How the data were processed

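The authors deposited 1 matrix of raw UMI counts per gene and barcode, aggregated over the 8 libraries. The submitters' processing notes name Cell Ranger 2.2.0, bcl2fastq and GRCm38, and the study's methods give another Cell Ranger version. Whether reads were subsampled on aggregation is not given in the sources used here. All barcodes per library are multiples of 100, and total UMIs ran from 1387032 to 24917112. Libraries were assigned from barcode suffixes.

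Cells with 500 to 6000 genes, 2000 to 40000 UMIs, 5 to 60% ribosomal (84 genes) and under 10% mitochondrial UMIs (13 genes) were kept, as in the study's methods, and gated on raw marker UMIs in a fixed order with no member gene. No doublet caller was run, and cells above 20000 UMIs were left out in 1 alternative. CPM, exact Poisson and Clopper-Pearson intervals (95%), thinning to 2000 UMIs (seed 1) and log2 ratios of CPM plus 10 with square-and-add intervals were computed with Python 3.11.15, numpy 2.4.6, scipy 1.17.1 and pandas 2.3.3. TMM factors came from edgeR 4.0.16. The scripts were tested on simulated data. With 1 library per condition and day no test was run, and called means a 2-fold difference with at least 50 UMIs. A fold against 0 used a floor of 3 UMIs per library.

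The genes named are the members, Ifitm5, Ifitm7, Ifit1, Isg15 and those of highest r. List genes given as examples, and the granzyme, single-cell and day 5 denominator alternatives, were chosen after their values were seen. The members and lists were chosen with earlier results of these data known. Promoters are from RefSeq, GRCm38.p6, with all 6 members matched. Shared 50-base stretches were counted in a coding transcript set without Ifitm10. The authors' own comparisons were not used. One further CD8 T subset is not reported here.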

Additional observations from a re-analysis of the deposited data

Results flagged for a closer look

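For 6 pairs of gene and comparison, and 1 further class, CD8 T cells and another class differed past 2-fold in opposite directions, all on the log2 scale of CPM plus 10. In each case the difference between classes was not tested. Ifitm1 in PD1d/2V/33 over PD1d/IL2V on day 12 stood at 2.58 in CD8 T cells and -1.19 in myeloid cells. Over untransduced OT1 on day 5 it stood at 1.16 in CD8 T cells and -1.01 in NK cells. Both contrasts rest on few cells. In PD1d/IL2V 5 of 275 myeloid cells held 50% of the 1320 Ifitm1 UMIs, and in untransduced OT1 day 5 1 NK cell held 41.2% of 68.

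Between day 5 and day 12 of PD1d/2V/33, type 2 cells ran against CD8 T cells for all 3 homologs. Ifitm1 was at 1.09 in CD8 T cells and -2.56 in type 2 cells, and Ifitm2 at 2.92 and -2.09. Ifitm3 was at 1.80 in CD8 T cells, -1.12 in CD4 T cells and -2.15 in type 2 cells. Ifitm2 in PD1d/2V/33 over PD1d/33 on day 12 was at 5.17 in CD8 T cells and -1.36 in type 2 cells, where the PD1d/33 library holds 33 cells.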

How the results depend on the processing

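In CD8 T cells, Ifitm1, Ifitm2, Ifitm3 and Plac8 kept their direction and stayed past 2-fold under all 12 alternatives in PD1d/2V/33 over PD1d/IL2V (1.95 to 3.21, 2.66 to 3.53, 1.70 to 3.01 and 1.11 to 1.32) and over PD1d/33 (3.25 to 5.69, 3.84 to 6.08, 2.21 to 4.79 and 1.64 to 1.91). The alternative with a lower UMI minimum changes only which genes are measured and cannot move a ratio. All alternatives reuse the same libraries. Over untransduced OT1 day 12, with 13 alternatives, the lowest values of Ifitm1, Ifitm2, Ifitm3 and Plac8 were 2.25, 2.46, 2.41 and 1.60, all past 2-fold. Those of Ifitm1, Ifitm3 and Plac8 came with untransduced OT1 day 5 as the denominator, in place of day 12. The higher level over that library helped to choose the members, so this alternative is not a check on them. In PD1d/2V/33 over untransduced OT1 on day 5 the count of members called went from 2 to 1 with cells above 20000 UMIs, cycling cells or cells with granzymes C to G left out. For day 12 over day 5 it went from 3 to 1 with the cell filter of the study's later experiment, which lets in shallower cells and leaves out deeper ones. Ifitm1, which stayed past 2-fold in only 5 of the 12 alternatives there, reversed from 1.09 to -0.0638 without the granzyme cells. For day 26 over day 12 the count called higher went from 1 to 0 with that filter and without the granzyme cells. The alternatives that leave cells out use fewer cells, and the cells kept by the later filter were not counted. The granzyme alternative was chosen after seeing the data. TMM scaling put the median of all genes between -0.01 and 0.13. Levels under 3 UMIs (0.211 to 11.1 CPM in CD8 T cells) could not be read at this depth. With 1 library per condition and day, library and condition cannot be told apart. No paired analysis was possible because no condition has a second library on the same day.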

Other observations

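In the classes too small to be split by library, Plac8 was at 1525 CPM in 130 B cells, 3469 in 41 plasmacytoid dendritic cells and 4880 in 52 neutrophils. Neutrophils also held Ifitm3 at 3719 CPM, Ifitm6 at 347 and Ifitm1 at 330. Plasmacytoid dendritic cells, known as producers of type I interferon, had Ifitm3 at 357 CPM. The 2649 cells that met no gate (20.7% of retained cells) had Ifitm3 at 785 CPM.

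Over all CD45+ cells of a library, Ifitm1 was at 105 CPM in Non-Treated, 114 in untransduced OT1 day 5, 70.0 in untransduced OT1 day 12, 186 in PD1d/IL2V, 58.1 in PD1d/33, and 169, 365 and 61.4 in PD1d/2V/33 on days 5, 12 and 26. These levels mix the share of each class with its level per cell, and the Non-Treated value came with no Ifitm1 UMI in its CD8 T cells.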
